A study of Mus musculus with 4 samples.

Results

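The genes described here are 8 members of the matrix metalloproteinase system of the mouse lung, taken by name from the gene table of a single-cell RNA sequencing study of lung ageing: the proteinases Mmp2, Mmp3, Mmp12, Mmp14 and Mmp19 and the tissue inhibitors of metalloproteinases Timp1, Timp2 and Timp3. All 8 were among the 27998 genes of the table and all 8 had UMIs, where a UMI (unique molecular identifier) counts 1 captured RNA molecule. Whole-lung cell suspensions came from wild-type male C57BL/6 mice by the labels, with 1 library at each of 4 ages: newborn mice of 10 days (NB), mature adults of 2 months (2 M), middle-aged mice of 10 months (10 M) and aged mice of 18 months (18 M). Cells were released from the tissue with collagenase D and DNase1, dead cells were removed, and the RNA was captured at its 3′ end. The suspensions were not enriched for fibroblasts, and how many mice went into a library is not given in the sources used here. With 1 library per age there was no replicate and no test between ages, so each level is given as CPM, a gene's UMIs scaled to 1000000 UMIs of the cell type, with an exact Poisson 95% interval, and each ratio with an exact 95% interval, both covering counting error only.

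Matrix metalloproteinases are zinc-dependent endopeptidases that cleave collagens, elastin, proteoglycans and cell surface proteins; most are secreted as inactive proenzymes, and their tissue inhibitors bind and block the active site. Mmp2 (gelatinase A) degrades denatured and basement membrane collagen, Mmp14 is a membrane-anchored collagenase that activates the Mmp2 proenzyme in a complex with Timp2, Mmp3 (stromelysin-1) cleaves many matrix proteins and activates other proenzymes, Mmp12 is the macrophage elastase, and Mmp19 is a secreted proteinase of basement membrane substrates. Timp1 and Timp2 are soluble inhibitors, whereas Timp3 is held in the extracellular matrix and also blocks ADAM17 and several ADAMTS proteinases. In the lung this balance is known for its part in alveolar development, fibrosis and emphysema.

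On mm10 the proteinases lie at chr8:92827291-92853420, plus strand (Mmp2, ENSMUSG00000031740), chr9:7445822-7455975, plus strand (Mmp3, ENSMUSG00000043613), chr9:7344381-7369499, plus strand (Mmp12, ENSMUSG00000049723), chr14:54431612-54445364, plus strand (Mmp14, ENSMUSG00000000957) and chr10:128790910-128800824, plus strand (Mmp19, ENSMUSG00000025355). The inhibitors lie at chrX:20870166-20874735, plus strand (Timp1, ENSMUSG00000001131), chr11:118301069-118355740, minus strand (Timp2, ENSMUSG00000017466) and chr10:86300372-86349506, plus strand (Timp3, ENSMUSG00000020044), and all 8 are annotated as protein coding. Mmp3 and Mmp12 are neighbours, 76323 bases apart. Timp1 lies within Syn1 (182 UMIs) and Timp3 within Syn3 (473 UMIs), both on the opposite strand, Tmem198b (663 UMIs) overlaps Mmp19 and Mmp1b (0 UMIs) overlaps Mmp12, also on the opposite strand, Cep295nl overlaps Timp2 on the same strand and is not in the gene table, and whether the counting used strand is not given in the sources used here. RefSeq promoters on GRCm38.p6, from 250 bases before to 50 after a gene's start, were at hand for 6 of the 8 members, Mmp2 and Mmp19 being the others. The letters TGAGTCA or TGACTCA, the site of the AP-1 transcription factor, were in 5.20% of all 32851 promoters of this length and the letters TATAAA or TTTATA in 13.6%, both strands searched and the motifs not overlapping each other. Mmp3 and 1 of the Mmp12 starts held both, with the first base of the AP-1 letters at -46 and -44 from the start. The first base of the TATAAA letters was at -7 for Mmp3 and at 5, after the start, for Mmp12. The windows of Mmp14, Timp1, Timp2 and Timp3 and the other Mmp12 start held neither. Of CG dinucleotides the Mmp3 window had 1 and this Mmp12 window 3, against 10 for Mmp14, 8 for Timp1, 25 for Timp2 and 24 for Timp3, and a median of 7 over all promoters. These matches describe letters and not bound sites. The windows below are those of the 3 fibroblast genes whose level stood apart in the library labelled 18 M and of the macrophage gene Mmp12, each on the plus strand, with the AP-1 and TATA letters in capitals.
Mmp3, chr9:7445572-7445871: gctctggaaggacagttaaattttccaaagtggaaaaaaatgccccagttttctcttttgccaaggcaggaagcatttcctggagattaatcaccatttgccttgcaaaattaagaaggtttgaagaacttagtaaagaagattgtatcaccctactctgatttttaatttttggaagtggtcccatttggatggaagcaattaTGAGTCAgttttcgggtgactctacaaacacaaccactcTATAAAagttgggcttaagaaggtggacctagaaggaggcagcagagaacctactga
Mmp12, chr9:7347124-7347423: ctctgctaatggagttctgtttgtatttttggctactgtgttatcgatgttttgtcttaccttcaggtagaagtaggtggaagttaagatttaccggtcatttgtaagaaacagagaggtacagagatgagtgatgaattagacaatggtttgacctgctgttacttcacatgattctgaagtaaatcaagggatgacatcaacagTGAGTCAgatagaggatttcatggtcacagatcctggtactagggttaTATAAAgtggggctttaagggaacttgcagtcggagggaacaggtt
Mmp14, chr14:54431348-54431647: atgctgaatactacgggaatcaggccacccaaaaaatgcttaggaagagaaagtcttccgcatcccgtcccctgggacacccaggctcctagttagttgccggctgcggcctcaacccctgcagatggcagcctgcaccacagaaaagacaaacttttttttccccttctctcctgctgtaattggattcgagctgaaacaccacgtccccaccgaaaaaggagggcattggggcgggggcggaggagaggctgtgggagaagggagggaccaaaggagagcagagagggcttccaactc
Timp3, chr10:86300162-86300461: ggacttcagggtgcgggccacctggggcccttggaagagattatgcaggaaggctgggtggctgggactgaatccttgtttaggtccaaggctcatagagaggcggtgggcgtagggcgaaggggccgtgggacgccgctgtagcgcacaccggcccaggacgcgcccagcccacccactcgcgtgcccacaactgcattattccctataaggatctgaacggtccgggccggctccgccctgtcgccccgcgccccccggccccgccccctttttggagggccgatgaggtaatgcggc

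The 4 libraries held 34037 cell barcodes, of which 28153 passed the limits on cells (6377, 5537, 7862 and 8377 by age, with median depths of 3998.5 to 4308 UMIs), and 131 barcode sequences occurred in 2 libraries. Marker genes gave 22729 cells (80.7%) one of 19 cell types, none of the markers being a member. The library labelled 18 M went against its label of male mice: Xist, the RNA of the inactive X chromosome, was at 578 CPM there and at most 0.526 CPM in the others, and 44.1% of its cells had a UMI of a Y-linked gene, against 71.6% to 76.6% in the others. Its fibroblasts also held 531 CPM of H19 and 15762 CPM of Eln (elastin), against at most 0.293 and 2415 CPM in the other libraries. It therefore stands apart from the others in more than its age, and age and library cannot be told apart. By age the fibroblasts came to 128, 96, 396 and 193 cells, at median depths of 7821 to 8211.5 UMIs, and all 8 fibroblast markers were detected in each. Their summed level was 8985, 20976, 11963 and 70834 CPM in that order, so the gate's own genes, 3 of which code for fibrillar collagens, differed between libraries too.

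Where each member's RNA came from was set out first. Fibroblasts held most of the UMIs of Mmp2, Mmp3, Mmp14 and Timp1 in each library. They also held most of those of Timp2, narrowly so in NB, and of Timp3 in all but the library labelled 18 M. Macrophages, monocytes and dendritic cells held most of those of Mmp12 and Mmp19. Of the Mmp2 UMIs in assigned cells, fibroblasts carried 98.7%, 98.5%, 99.01% and 93.4% in NB, 2 M, 10 M and the library labelled 18 M. Mmp3 was as concentrated, with 99.4%, 98.7%, 99.6% and 96.7% in the same order. These shares stood beside a fibroblast share of all assigned UMIs of 3.94%, 3.63%, 9.74% and 4.17%. Mmp14 had 67.9%, 81.7%, 90.7% and 66.6% of its UMIs in fibroblasts, with 11.1% in other stromal cells of NB and 14.7% in epithelial cells of the library labelled 18 M. By level it was at 23.1 CPM in alveolar type II cells, an epithelial type, of that library, against 406 CPM in its fibroblasts. The fibroblast share of Timp1, at 79.6%, 92.4%, 96.7% and 73.3%, was like that of Mmp14 highest in 10 M and lowest in the library labelled 18 M. Timp2 was the inhibitor with the widest spread of sources, with 51.2%, 61.96%, 78.3% and 58.4% in fibroblasts. T cells carried 15.8%, 17.97%, 6.54% and 11.1% of it, and neutrophils 14.9%, 5.53%, 3.88% and 7.69%. The Timp2 level in NB was 47.1 CPM in T cells and 190.4 CPM in neutrophils, against 1314 CPM in fibroblasts.

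The main source of Timp3 differed between libraries. Fibroblasts held 68.9%, 82.6%, 85.3% and 27.1% of its UMIs in NB, 2 M, 10 M and the library labelled 18 M, and alveolar type II cells, the surfactant-producing cells of the alveolus, held 3.43%, 6.14%, 4.84% and 60.9%. The share of alveolar type II cells in all assigned UMIs moved with it and was 1.95%, 2.34%, 4.10% and 15.8%, and its part in the source share was not tested. Macrophages, monocytes and dendritic cells together carried 96.9%, 96.1%, 94.5% and 94.2% of Mmp12. For Mmp19 their shares were 90.4%, 88.1%, 84.8% and 90.5%, and fibroblasts added 4.38%, 6.55%, 11.3% and 4.69%. In all, 6 of the 8 members had most of their UMIs in fibroblasts in NB, 2 M and 10 M, and 5 of 8 in the library labelled 18 M, the lost member being Timp3. The NB count includes Timp2, whose majority there was within counting error. Read by role, 3 of the 5 proteinases and all 3 inhibitors shared the fibroblast as main source in NB, 2 M and 10 M, and the other 2 proteinases, Mmp12 and Mmp19, came mainly from macrophages, monocytes and dendritic cells. Those cells held 0.125%, 0%, 0.0250% and 0.222% of the Timp3 UMIs by age, 8.57%, 5.46%, 0.829% and 16.9% of the Timp1 UMIs and 5.98%, 3.67%, 4.10% and 5.15% of the Timp2 UMIs.

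**Figure D1:**
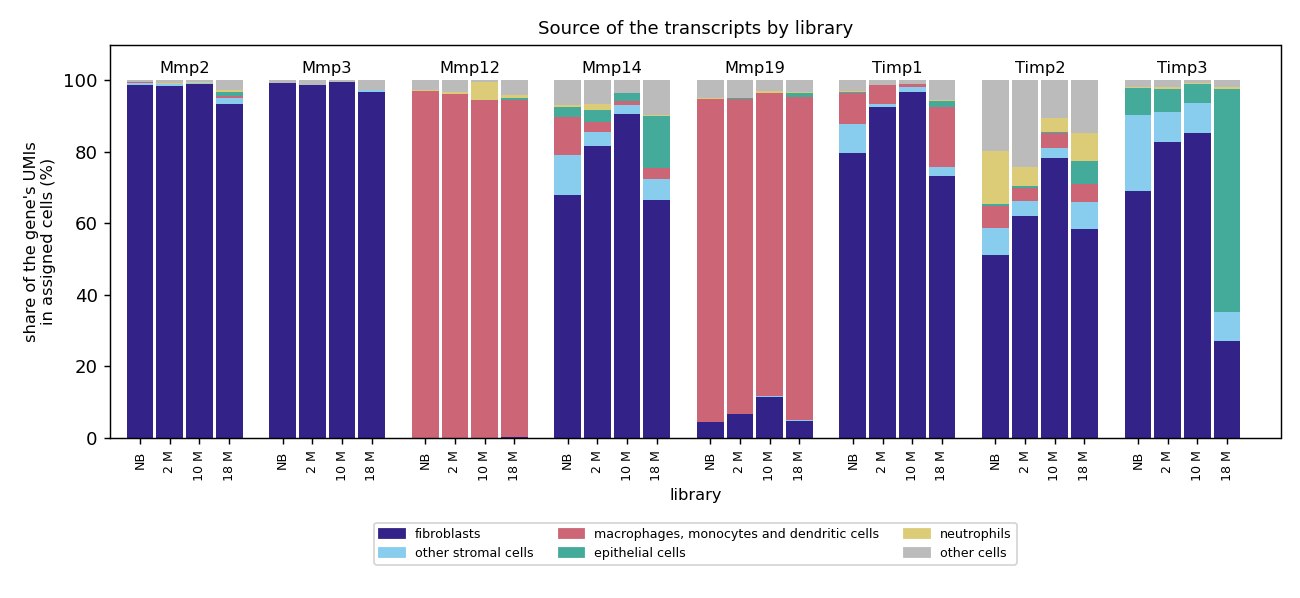
Share of each member's UMIs in assigned cells (percent, y axis) that lay in each class of cells, as stacked bars by member and library (x axis); there are no error bars. Mmp2 and Mmp3 are almost wholly fibroblast RNA in all 4 libraries, Mmp12 and Mmp19 are 84.8% to 96.9% macrophage, monocyte and dendritic cell RNA, and the Timp3 bar of the library labelled 18 M is mostly epithelial.

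Within fibroblasts, the comparison of the aged with the mature adult lung gave a higher Mmp14 level and lower Mmp3 and Timp3 levels in the library labelled 18 M than in 2 M, with an Mmp2 ratio near 1. A ratio was called when it was at least 2 or at most 0.5, its interval excluded 1 and the libraries together had at least 10 UMIs. By this rule 3 of the 7 members that could be compared were called, beside 11.6% of the 10303 genes compared. The median log2 ratio was -0.30 over these members and -0.02 over all genes compared. Because the library labelled 18 M stands apart, the comparisons among the other 3 libraries are given beside it below.

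Mmp2 had 279, 766, 379.8 and 767 CPM in fibroblasts of NB, 2 M, 10 M and the library labelled 18 M, with intervals of 248 to 312, 709 to 826, 359 to 401 and 725 to 811 CPM. The 2 M level and that of the library labelled 18 M were alike and lay above the other levels, and only their intervals overlapped. Its ratio was 1.002 (0.911 to 1.10) for 18 M over 2 M, 0.496 (0.451 to 0.545) for 10 M over 2 M and 0.364 (0.317 to 0.417) for NB over 2 M. The 10 M ratio lies at the 2-fold limit and its call was lost in 4 of 12 alternatives. The share of fibroblasts with an Mmp2 UMI spread less, at 66.4%, 77.1%, 66.7% and 69.4% in order of age. After each cell was thinned to 1000 UMIs it was 20.01%, 41.3%, 25.1% and 42.9%, in the order of the CPM.

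Mmp14, the membrane-bound activator of Mmp2, had 152, 193, 217 and 406 CPM in the same order, with intervals of 129 to 177, 165 to 225, 202 to 233 and 375 to 438 CPM. The level in the library labelled 18 M lay above the other 3, whose neighbouring intervals overlapped. Its ratio was 2.10 (1.77 to 2.50) for 18 M over 2 M, just past the 2-fold limit, and 2.67 (2.25 to 3.19) for 18 M over NB. It was 1.12 (0.949 to 1.33) for 10 M over 2 M and 0.785 (0.630 to 0.979) for NB over 2 M. Mmp14 was detected in a similar share of fibroblasts everywhere, 64.8%, 65.6%, 63.1% and 68.4%, and in 15.2%, 15.9%, 17.5% and 31.04% after thinning. The 18 M over 2 M call was lost in 3 of 12 alternatives, with log2 ratios of 0.93 to 0.99 against 1.07.

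Mmp3, the stromelysin, had 454, 856, 529.9 and 92.1 CPM, with intervals of 415 to 496, 796 to 919, 506 to 555 and 77.9 to 108 CPM. None of these intervals overlapped, and the library labelled 18 M was the lowest by a wide margin. The ratio of 18 M over 2 M was 0.108 (0.0896 to 0.129), the lowest of the members, and that of 18 M over NB was 0.203 (0.168 to 0.244). Between the other ages it was 0.619 (0.568 to 0.675) for 10 M over 2 M and 0.531 (0.473 to 0.595) for NB over 2 M, neither past 2-fold. Mmp3 was carried by a minority of fibroblasts, 25.8%, 38.5%, 33.6% and 18.7% of cells, and 1 cell held 20.9%, 18.9%, 7.58% and 14.9% of its UMIs, and the intervals take no account of such clumping.

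Mmp19 in fibroblasts was at 45.1, 43.2, 40.7 and 41.7 CPM, with intervals of 33.3 to 59.6, 30.6 to 59.3, 34.2 to 48.1 and 32.3 to 52.95 CPM that all overlapped. Its 18 M over 2 M ratio was 0.965 (0.639 to 1.48). Mmp12 was at 0 UMIs in fibroblasts of NB, 2 M and 10 M, which allows up to 2.76, 3.41 and 0.879 CPM by a floor of 3 counts, and had 3 UMIs in 3 fibroblasts of the library labelled 18 M. No ratio was formed for it.

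Among the inhibitors, Timp3 had 2031, 2676, 1998 and 758 CPM in fibroblasts of NB, 2 M, 10 M and the library labelled 18 M, with intervals of 1947 to 2117, 2569 to 2786, 1950.4 to 2046 and 716 to 802 CPM. The library labelled 18 M was far below the others, 2 M was the highest, and NB and 10 M overlapped. The ratio was 0.283 (0.264 to 0.304) for 18 M over 2 M and 0.373 (0.348 to 0.400) for 18 M over NB, whereas 10 M over 2 M gave 0.747 (0.712 to 0.783) and NB over 2 M 0.759 (0.716 to 0.805). Fibroblasts with a Timp3 UMI made up 98.4%, 96.9%, 91.4% and 74.1%, and 77.2%, 79.3%, 73.2% and 42.4% after thinning. Timp2, which both inhibits proteinases and takes part in Mmp2 activation, differed least of the inhibitors between libraries, at 1314, 1669.7, 1319.7 and 1228 CPM, with intervals of 1247 to 1384, 1585 to 1757, 1281 to 1359 and 1174 to 1283 CPM. Only 2 M stood above the rest, and the ratio of 18 M over 2 M was 0.735 (0.687 to 0.787), short of 2-fold. It was found in 97.7%, 97.9%, 94.7% and 78.8% of fibroblasts. Cells with at least 1000 UMIs numbered 124 of 128, 94 of 96, 369 of 396 and 153 of 193 fibroblasts by age. Shallow cells were thus most common in the library labelled 18 M. Unthinned shares of cells, here and for Mmp3 and Timp1, take no account of this.

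Timp1 had 179, 250.1, 479 and 203 CPM, with intervals of 155 to 206, 218 to 285, 456 to 502 and 181 to 226 CPM. The 10 M level was the highest, with no overlap with another library, and the library labelled 18 M overlapped with both NB and 2 M. Its ratio of 10 M over 2 M was 1.91 (1.66 to 2.21), short of 2-fold, and without the cell with most Timp1 UMIs in each library it passed 2-fold, at a log2 ratio of 1.17. Its 18 M over 2 M ratio was 0.811 (0.682 to 0.967). A single fibroblast held 27.2%, 23.6%, 8.33% and 26.4% of the Timp1 UMIs of NB, 2 M, 10 M and the library labelled 18 M, and 46.1%, 62.5%, 64.4% and 38.3% of fibroblasts had any.

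**Figure D2:**
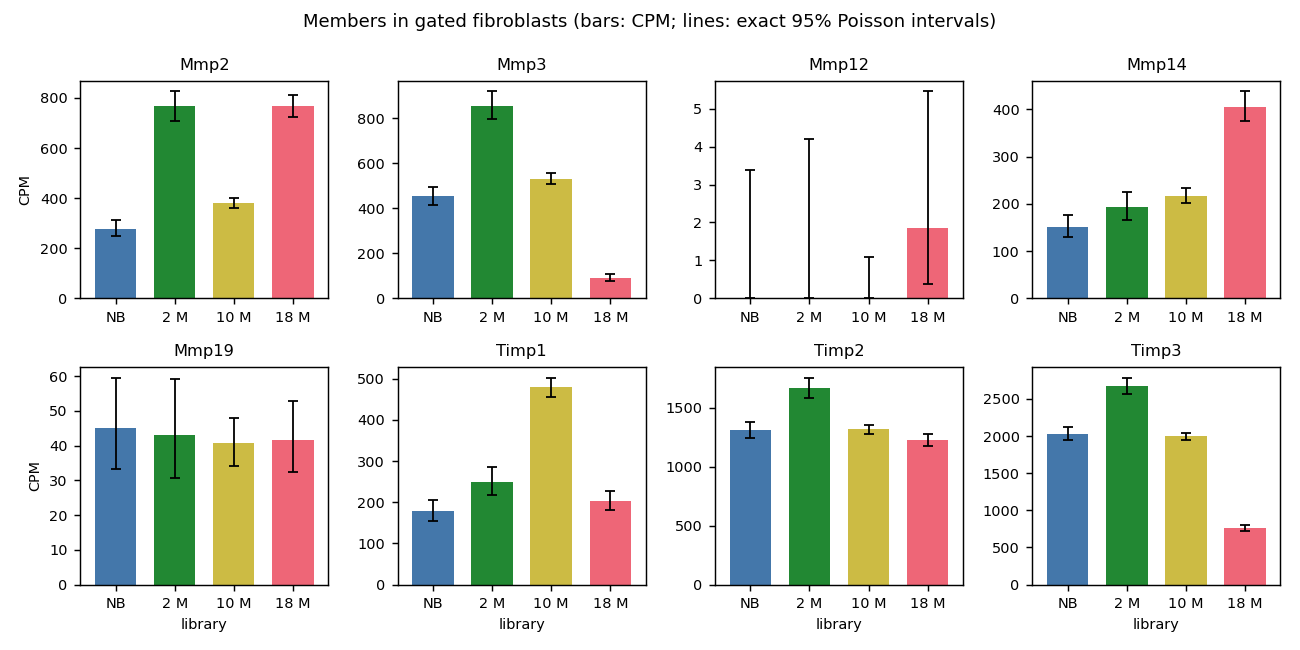
Level of each member in gated fibroblasts (CPM, y axis, a scale per panel) by library (x axis, by age); bars are the level of the summed UMIs and lines the exact Poisson 95% interval, which covers counting error only. Timp3 and Mmp3 are lowest and Mmp14 highest in the library labelled 18 M, Mmp2 is high in the library labelled 18 M and in 2 M, and Mmp12 is at or near 0.

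Against the 2 M library the middle-aged and newborn fibroblasts differed past 2-fold in few members, though the intervals of most members excluded 1 in both comparisons. For 10 M over 2 M, 1 of 7 members was called, Mmp2, which was lower, beside 4.87% of the 11160 genes compared. For NB over 2 M it was again Mmp2, lower in NB, beside 7.8% of 9798 genes. For 18 M over NB, 4 of 7 members were called, Mmp2 and Mmp14 higher and Mmp3 and Timp3 lower in the library labelled 18 M, beside 16.6% of 10633 genes. These comparisons share libraries, and each member's own values are those given above. Mmp2, Mmp3, Timp2 and Timp3 were highest or level with the highest in 2 M, Timp1 in 10 M and Mmp14 in the library labelled 18 M.

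**Figure D3:**
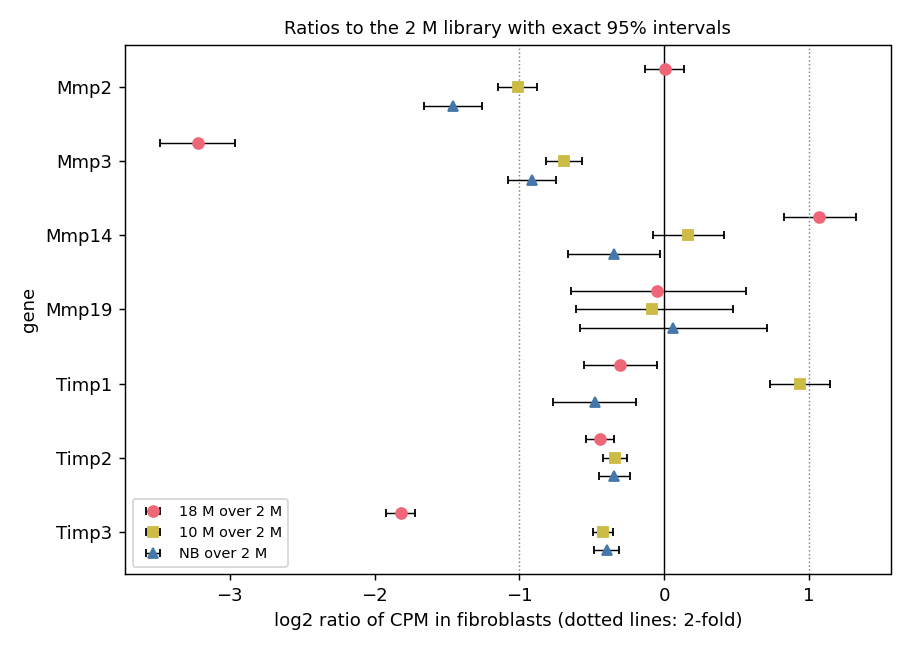
Log2 ratio of CPM in gated fibroblasts (x axis) of the 7 members compared (y axis), for 18 M, 10 M and NB over 2 M; points are the ratio, horizontal bars the exact 95% interval for counting error, and the dotted lines mark 2-fold. In 18 M over 2 M, Mmp3 and Timp3 lie left of the lower line and Mmp14 just right of the upper one, and in 10 M over 2 M only Mmp2 lies past a line.

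Since the library labelled 18 M holds cells with and without Y-linked and Xist RNA, its fibroblasts were split by these genes, 73 with a Y-linked UMI and no Xist UMI and 58 with Xist and no Y-linked UMI. Mmp2 was at 773 CPM in the Y-linked cells and 751 CPM in the Xist cells, and Mmp14 at 415 and 406 CPM. Timp3 was low in both, at 773 and 673 CPM, and so was Mmp3, at 63.6 and 126 CPM. The Mmp3 intervals, 46.9 to 84.4 and 99.3 to 157 CPM, did not overlap, and without the richest cell of each set Mmp3 was at 43.6 and 93.0 CPM. Timp2 also had separate intervals, at 1322 (1241 to 1406) and 1120 (1038 to 1206) CPM. Timp1 was unequal too, with 308 CPM in the Y-linked and 126 CPM in the Xist cells. Against 2 M the Y-linked cells had a Timp1 log2 ratio of 0.30 where all fibroblasts of the library had -0.30. A single Y-linked cell held 86 of their Timp1 UMIs, and without it their level was 197 CPM, against 250.1 CPM in 2 M or 196 CPM in 2 M without its own richest cell. The Xist cells were at 106 CPM of Timp1 without their richest cell. The calls of Mmp3, Mmp14 and Timp3 were the same in the Y-linked cells alone.

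Most fibroblasts had UMIs of both a proteinase and an inhibitor. Inhibitor UMIs were in most fibroblasts, so the counts largely follow how many had a proteinase UMI. No share expected from separate detection was computed. A UMI of at least 1 of Mmp2, Mmp3 and Mmp14 together with at least 1 of Timp1, Timp2 and Timp3 was found in 110 of 128 fibroblasts in NB, 86 of 96 in 2 M, 342 of 396 in 10 M and 150 of 193 in the library labelled 18 M, or 85.9%, 89.6%, 86.4% and 77.7%. An inhibitor alone was found in 18, 9, 49 and 20 cells and a proteinase alone in 0, 1, 4 and 8. Neither was found in 0, 0, 1 and 15. Cells without a proteinase UMI were shallow, with medians of 4548, 3408, 2186 and 916 UMIs in the order of age.

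Fibroblasts were divided further by marker lists into adventitial (81, 77, 300 and 123 cells in order of age), alveolar (36, 10, 58 and 7 cells) and a small further set (4, 3, 10 and 26 cells). The small set was gated with Postn and Cthrc1 among its 8 markers, but its own values went against them: both were at 0 UMIs in its NB and 2 M cells, and in the library labelled 18 M it had 581 CPM of Postn, against 1357 CPM in adventitial fibroblasts. Aspn and Hhip had the highest levels of the 8 in NB, 2 M and 10 M, and Aspn and Tnc in the library labelled 18 M, so the set was given no name and the levels in it are not compared. Within adventitial fibroblasts Timp3 was at 2420.5, 2809, 2211 and 822 CPM and Mmp3 at 776, 934, 599 and 107 CPM in NB, 2 M, 10 M and the library labelled 18 M. Their 18 M over 2 M ratios were 0.293 (0.271 to 0.316) and 0.114 (0.0939 to 0.138), close to those over all fibroblasts. Mmp14 was at 156, 202, 238 and 424 CPM there, with a ratio of 2.10 (1.74 to 2.55), and Mmp2 at 324, 779, 428 and 847 CPM, with a ratio of 1.09 (0.979 to 1.21). Timp1 had 306, 309, 609 and 221 CPM and Timp2 1702, 1876, 1467 and 1452 CPM in these cells. Timp2 was found in 96.3%, 100%, 95.3% and 89.4% of them, and in 75.3%, 81.1%, 72.9% and 72.4% after thinning to 1000 UMIs. Alveolar fibroblasts, which reached 20 cells in NB and 10 M only, carried less of most members than adventitial cells of the same library. Their Timp1 level was 47.8 CPM in NB and 104 CPM in 10 M, against 306 and 609 CPM in adventitial fibroblasts. Mmp3 was at 139 and 408 CPM, though 1 cell held 82.0% of its NB UMIs and it was at 26.3 CPM there without that cell, Mmp2 at 194 and 215 CPM, and Timp3 at 1481 and 1400.2 CPM in alveolar fibroblasts. Mmp14 was at 134 and 142 CPM in them, against 156 and 238 CPM in adventitial fibroblasts.

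The macrophage proteinases differed between libraries in another way. Mmp12 was higher in alveolar macrophages of NB and of the library labelled 18 M than in those of 2 M and 10 M. Its levels were 275, 67.2, 51.00 and 187 CPM in 162, 115, 206 and 404 cells, with intervals of 253 to 299, 56.2 to 79.6, 43.5 to 59.5 and 176 to 199 CPM. The 2 M and 10 M intervals overlapped and lay below the others. Only 50, 20, 34 and 107 of these cells had an Mmp12 UMI, and without the richest cell of each library the levels were 249, 47.8, 43.4 and 167 CPM. The ratio was 2.79 (2.33 to 3.37) for 18 M over 2 M and 4.10 (3.39 to 4.99) for NB over 2 M. Mmp19, found in 74.1%, 73.9%, 77.7% and 57.7% of alveolar macrophages, was at 474, 258, 324 and 220.5 CPM, with intervals of 445 to 504, 236 to 281, 304 to 344 and 208 to 233 CPM. NB was the highest and the library labelled 18 M the lowest, with a ratio of 18 M over NB of 0.465 (0.428 to 0.506) and of 18 M over 2 M of 0.854 (0.770 to 0.949). Without the upper limits on cells Mmp12 was at 248, 86.2, 41.2 and 373 CPM by age, which puts the library labelled 18 M above NB, and Mmp19 at 468, 373, 312 and 219 CPM.

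Inhibitor levels in alveolar macrophages were far below those of fibroblasts. Timp2 was at 62.9, 37.9, 62.9 and 22.5 CPM and Timp1 at 4.29, 4.04, 1.88 and 11.6 CPM, from 9, 8, 6 and 66 UMIs. For 18 M over 2 M, 2 of 4 members were called, Mmp12 and Timp1, both higher, beside 7.22% of all genes compared, with a Timp1 ratio of 2.87 (1.37 to 6.92). Without the upper limits Timp1 was at 4.92, 2.66, 1.996 and 29.4 CPM by age. None of 4 was called for 10 M over 2 M (background 3.49%), Mmp12 of 4 for NB over 2 M (background 5.44%), and 3 of 5 for 18 M over NB (background 8.82%), Mmp19 and Timp2 lower and Timp1 higher in the library labelled 18 M. Fibroblast markers, a measure of free RNA, stood at 5.24, 3.54, 8.45 and 32.8 CPM in these macrophages, highest where Timp1 was, and their part in the Timp1 difference was not tested. Within the library labelled 18 M, macrophages with a Y-linked UMI and no Xist had 139.5 CPM of Mmp12 and 188 CPM of Mmp19, and those with Xist and no Y-linked UMI had 214 and 266 CPM. A single Xist cell held 121 of their 481 Mmp12 UMIs. Without the richest cell of each set Mmp12 was at 121.5 CPM in the Y-linked and 161 CPM in the Xist cells. The 44 cells with neither had 317 CPM of Mmp12.

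Interstitial macrophages had 628 CPM of Mmp12 in 27 cells of the library labelled 18 M and 584 CPM in 22 cells of NB, against 187 and 275 CPM in alveolar macrophages of the same libraries, but a single NB cell held 77.2% of the NB UMIs and without it the level was 139.8 CPM. They also carried Mmp14, at 90.2 CPM in the library labelled 18 M and 126 CPM in NB. For 18 M over NB, 1 of 4 members was called, Mmp19, at 2.996 (1.14 to 9.96), beside 14.6% of all genes, and 1 cell held 66.7% of its UMIs in the library labelled 18 M, where it was at 39.5 CPM without that cell.

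**Figure D4:**
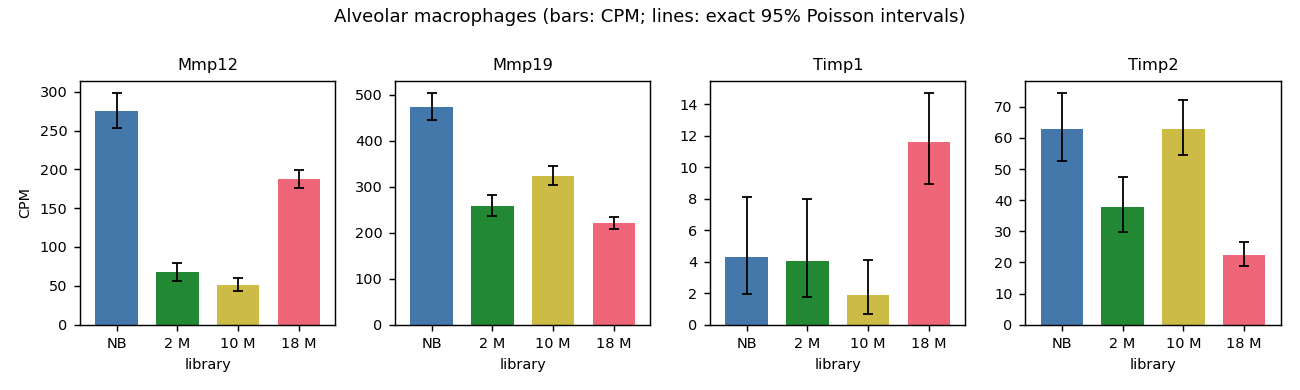
Levels in gated alveolar macrophages (CPM, y axis, a scale per panel) of Mmp12, Mmp19, Timp1 and Timp2 by library (x axis, by age); bars are the level of the summed UMIs and lines the exact Poisson 95% interval for counting error. Mmp12 is high in NB and in the library labelled 18 M, Mmp19 is highest in NB, and Timp1 is highest in the library labelled 18 M.

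Outside fibroblasts, Timp3 was also read in most endothelial and alveolar type II cells. Endothelial cells had 1343, 1285, 1350.2 and 1041 CPM of it in 58, 34, 57 and 31 cells, with intervals of 1229 to 1465, 1125 to 1461, 1237 to 1471 and 926 to 1167 CPM. In the library labelled 18 M this was above the fibroblast level, and in the other libraries it was below it. The Timp3 ratio of 18 M over 2 M in endothelial cells was 0.810 (0.680 to 0.966). Timp2 was at 352, 524, 347 and 360.0 CPM there. Of the proteinases, Mmp14 was at 13.2, 38.6, 25.9 and 159 CPM and Mmp2 at 5.30, 11.03, 7.76 and 74.1 CPM, with Mmp2 resting on 21 UMIs in 6 cells of the library labelled 18 M, where it was at 45.7 CPM without the cell that had most. Both were called higher for 18 M over 2 M, at 4.11 (1.84 to 10.8) and 6.72 (1.64 to 59.1), 2 of 4 members beside 11% of all genes. Fibroblast markers in endothelial cells were at 34.4, 154, 18.1 and 116 CPM, and their part in these values was not tested.

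Alveolar type II cells had 204, 309, 269 and 452 CPM of Timp3 in 36, 40, 101 and 591 cells, with intervals of 167 to 246, 265 to 358, 243 to 298 and 435 to 469 CPM. The library labelled 18 M was the highest and did not overlap with another, so its Timp3 stood opposite to that of its fibroblasts. The 18 M over 2 M ratio was 1.46 (1.26 to 1.71), not past 2-fold, and that of Timp2 was 2.01 (1.07 to 4.25), which made 1 of 5 members called beside 7.56% of all genes. For 18 M over NB, Timp3 and Timp2 were both called higher, 2 of 5 beside 9.93%. Fibroblast markers were at 5.56, 7.05, 7.65 and 106 CPM in these cells, and their part was not tested.

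**Figure D5:**
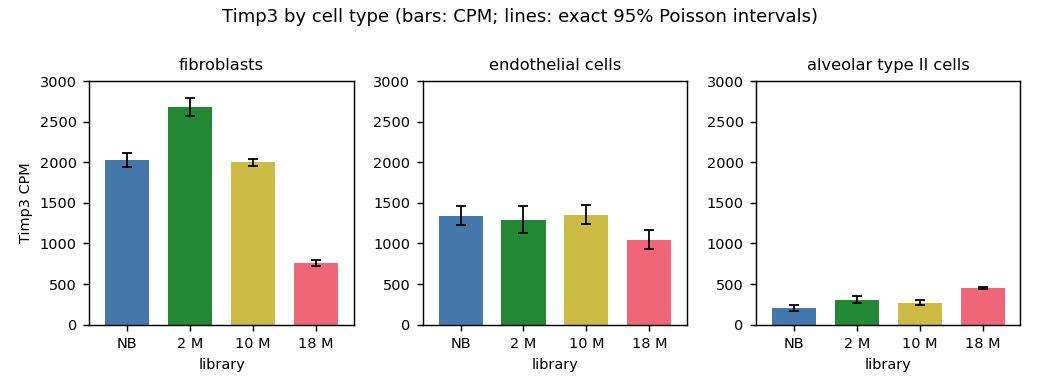
Level of Timp3 (CPM, y axis, the same scale in each panel) in fibroblasts, endothelial cells and alveolar type II cells by library (x axis, by age); bars are the level of the summed UMIs and lines the exact Poisson 95% interval for counting error. In the library labelled 18 M the fibroblast bar is the lowest and the alveolar type II bar the highest of its panel.

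Of the members, Timp2 was also read in neutrophils and lymphocytes. Neutrophils had 190.4, 159, 152 and 161 CPM of Timp2, T cells 47.1, 58.8, 46.8 and 46.9 CPM and natural killer cells 72.3, 56.5, 67.9 and 26.4 CPM. In neutrophils none of 3 members was called for 18 M over 2 M (background 10.1%). B cells were assumed to make little of these RNAs themselves, which was not tested. They served as the measure of free RNA in 2232, 2567, 3542 and 2624 cells with median depths of 3170.5 to 3742 UMIs, against 7821 to 8211.5 UMIs in fibroblasts. Their levels were 0, 0.194, 0.0721 and 1.20 CPM for Mmp2, 0.311, 0.581, 0.216 and 0.185 CPM for Mmp3, 0.829, 0.678, 1.08 and 4.62 CPM for Mmp14, 0.104, 0.194, 0.505 and 1.39 CPM for Timp1 and 2.80, 3.58, 3.17 and 4.99 CPM for Timp3. The share of B cells with a UMI was at most 0.234% for Mmp3, 0.495% for Mmp2 and 1.49% for Timp3, far below the fibroblast shares. For 18 M over 2 M, 4 of 7 members were called in B cells, all higher (Mmp2, Mmp12, Mmp14 and Timp1), beside 15.7% of all genes, and so were the fibroblast markers in B cells at 3.52, 14.3, 11.3 and 69.4 CPM. The part of free RNA in the fibroblast differences was not tested.

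The rest of the pathway was read from lists of related genes. Of 16 other matrix metalloproteinases and Timp4, 4 could be compared in fibroblasts for 18 M over 2 M and none was called. Mmp9 (gelatinase B) had most UMIs of this list, 96.7% of them in neutrophils, at 429, 361, 287 and 464 CPM in order of age. In alveolar macrophages the collagenase Mmp13 was at 23.2 CPM in the library labelled 18 M, against 1.01 CPM in 2 M (ratio 22.9, 6.23 to 191), from 132 and 2 UMIs. It was 1 of 2 genes of the list compared there, beside 7.22% of all genes called. Of 7 plasminogen activation genes, 5 were compared in fibroblasts and 1 was called, beside 11.6% of all genes, the protease inhibitor Serpine2, at 309 CPM in the library labelled 18 M, against 78.4 CPM in 2 M (ratio 3.94, 3.06 to 5.15), higher in that library. Of 8 activators and cell surface regulators, 8 were compared and 1 was called, a share near those 11.6%, the syndecan Sdc4, at 442 CPM in the library labelled 18 M, against 890.0 CPM in 2 M (ratio 0.496, 0.448 to 0.550), lower in that library. In alveolar macrophages Sdc4 was called higher, at 61.8 CPM in the library labelled 18 M, against 9.09 CPM in 2 M (ratio 6.80, 4.24 to 11.6), as was Plat (tissue plasminogen activator), at 7.02 CPM in the library labelled 18 M, against 2.02 CPM in 2 M (ratio 3.48, 1.26 to 13.4). Fibroblasts held 73.6% of the Plat UMIs in assigned cells, and B cells 49.7% of those of Sdc4. Fibroblast markers in these macrophages were at 3.54 CPM in 2 M and 32.8 CPM in the library labelled 18 M. The part of free RNA in both calls was not tested. Sdc4 was 1 of 6 and Plat 1 of 4 genes of their lists compared there, beside 7.22% of all genes called. The members with most UMIs of these lists, Plaur (the urokinase receptor) and Cd44 (a hyaluronan receptor), were read mostly in alveolar macrophages and were not called in either cell type for 18 M over 2 M.

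Of 17 ADAM and ADAMTS proteinases, relatives of the matrix metalloproteinases of which Timp3 is known to block some, 16 were compared in fibroblasts for 18 M over 2 M and 4 were called, all higher, with a list median log2 ratio of 0.60 beside -0.02 over all genes and 6.73% of all genes called higher. Adam19, from 52 and 1 UMIs, had a ratio of 28.5 (4.89 to 1146). The other 3, named after their values were seen, were Adam12, with 34 UMIs in the library labelled 18 M and 0 in 2 M, at least 6.20-fold higher against the floor of 3 counts in 2 M, Adam33 at 3.28 (1.37 to 9.54) and Adamts12 at 6.39 (2.79 to 18.00). Adamts1, the list's gene with most UMIs, was at 1025 CPM in the library labelled 18 M, against 788 CPM in 2 M (ratio 1.30, 1.19 to 1.42). For 10 M over 2 M in fibroblasts 4, 5, 8 and 15 genes of the 4 lists were compared and 2 were called in all, a share near the 4.87% of all genes, both lower and both named after their values were seen: Adamts2, at 261 CPM in 10 M, against 556 CPM in 2 M (ratio 0.470, 0.421 to 0.526), and Mmp16, at 5.86 CPM in 10 M, against 13.6 CPM in 2 M (ratio 0.430, 0.200 to 0.964).

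Ordered by the median over libraries of cell types with at least 20 cells, fibroblasts had the highest level of 6 members: 573 CPM for Mmp2, 492 for Mmp3, 205 for Mmp14, 226 for Timp1, 1317 for Timp2 and 2014 for Timp3. The range over libraries overlapped with that of endothelial cells for Timp3 (median 1314 CPM there) and, through the 159 CPM of endothelial cells in the library labelled 18 M, for Mmp14. For Mmp12 no order of interstitial and alveolar macrophages is given, since interstitial macrophages reached 20 cells in 2 libraries only and their NB level rests on 1 cell. For Mmp19 the ranges of alveolar macrophages (291 CPM) and platelets (195 CPM, in 2 libraries) overlapped.

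The genes whose pattern was most like each member were ranked by Pearson's r of log2(CPM + 1) over 46 groups of library and cell type, among 13432 genes with at least 100 UMIs; the groups share libraries and depth, and r is a description. For Mmp2 they were Lox (r = 0.95), Cacna2d1 (0.93) and Fbn1 (0.92), where Lox codes for lysyl oxidase and Fbn1 for fibrillin-1. For Mmp3 they were Sult5a1 (r = 0.99), Abca8b (0.98) and Fmod (0.98), where Fmod codes for fibromodulin. Mmp14 was most like Myh10 (r = 0.85), P3h3 (0.84) and Rbfox2 (0.84). The patterns of the macrophage members were closest to Ms4a7 (r = 0.84), Mrc1 (0.83) and Slamf9 (0.83) for Mmp12, Ms4a7 being a marker used to gate interstitial macrophages, and to Tbxas1 (r = 0.82), Hexa (0.79) and Fkbp1b (0.77) for Mmp19. Of the inhibitors, Timp1 had a pattern like that of Enpp3 (r = 0.86) and Col15a1 (0.85), Timp2 was most like Ctsl (r = 0.81), Tgfb2 (0.79) and Pknox2 (0.79) and Timp3 like Igfbp7 (r = 0.96), Parva (0.96) and Nfib (0.95). Between members, r was 0.85 for Mmp2 and Mmp3, 0.81 for Mmp2 and Mmp14, and 0.57 for Mmp12 and Mmp19. Between proteinases and inhibitors r ran from -0.39 for Mmp12 and Timp3 to 0.78 for Mmp3 and Timp1, with 0.78 for Mmp2 and Timp1, 0.75 for Mmp2 and Timp2 and 0.72 for Mmp14 and Timp3.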

How the data were processed

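Single-cell RNA was measured in 4 mouse lung libraries, 1 per age. The authors deposited unnormalized UMI counts, a row for each gene and a column for each barcode called as a cell. By the submitters' processing notes they came from Cell Ranger 3.0.2 on mm10 (the matrix header names version 3.1.0), and Seurat 2.0 served later steps. A barcode was kept if it had more than 200 but fewer than 5000 genes, no more than 25000 UMIs and a mitochondrial share below 8%, the study's UMI limit being read as an upper one, which left 18.4% of UMIs out. A cell was given 1 of 19 types when at least 3 of its 8 markers had a UMI and exceeded every other type by at least 2; 3 markers were absent from the gene table (T cells had 6 of 8). Fibroblast subtypes needed 2 markers and more than each other subtype. No doublet caller was run, and cells with markers of 2 types stayed among the 5424 unassigned cells.

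UMIs were summed per library and cell type with at least 20 cells and scaled to 1000000 (CPM), with exact Poisson, Clopper-Pearson and conditional binomial 95% intervals. These cover counting error only, and take no account of clumping of a gene's UMIs in single cells. In fibroblasts a single UMI was worth 0.920, 1.14, 0.293 and 0.622 CPM by age. With 1 library per age no test was made. The median log2 ratios over genes used 0.5 UMIs added to each sum. Thinned shares are the expected shares of cells with a UMI after drawing 1000 UMIs from each cell, shallower cells left out. The work was done in Python 3.11.15 with scipy 1.17.1, numpy 2.4.6, pandas 2.3.3 and matplotlib 3.10.9. The ratio intervals were tested on simulated Poisson counts. Those counts had no clumping, so the simulation cannot show how the intervals hold for clumped genes.

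All 8 members are named. Genes of the pathway lists are named when they had at least 100 UMIs in a cell type and were called for 18 M over 2 M in fibroblasts or macrophages, or had most UMIs of their list. The members, lists and markers were chosen with earlier results of these data known. Alternatives were other limits on cells, other gates, another total, a mean over cells, the richest cell left out, at least 30 UMIs for a ratio and, for 18 M, cells with Y-linked and no Xist UMIs. A result of the ranking by likeness is not reported here.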

Additional observations from a re-analysis of the deposited data

Results flagged for a closer look

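For 3 inhibitors the ratio of 18 M over 2 M ran in opposite directions in fibroblasts and in another cell type, and the differences, which rest on 1 library per age, were not tested. The log2 ratio of Timp3 was -1.82 in fibroblasts and 0.55 in alveolar type II cells, a difference of -2.37. Timp2 had -0.44 in fibroblasts, 1.01 in alveolar type II cells (difference -1.45) and 0.82 in B cells (difference -1.27). Timp1 had -0.30 in fibroblasts, 1.52 in alveolar macrophages (difference -1.82) and 2.84 in B cells (difference -3.14). Fibroblast markers were also higher in the library labelled 18 M than in 2 M in these 3 other cell types, and their part in the differences was not tested.

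Barcodes above the upper limits on genes or UMIs, which entered only the alternative without these limits, numbered 58, 63, 77 and 188 by age and held 4.52%, 6.02%, 4.86% and 10.4% of all UMIs. The shares given first for each library are those whose interval lay above 3 times the share of all UMIs. In the library labelled 18 M these were 55.4% of the Mmp12 and 38.7% of the Timp1 UMIs, and Mmp2, Mmp14, Mmp19, Timp2 and Timp3 were also above the 10.4%, at 19.97% to 24.3%, while Mmp3 was at 7.53%. In 2 M they held 33.7% of Mmp2, 36.3% of Mmp12, 28.4% of Mmp14, 51.5% of Mmp19, 23.9% of Timp1 and 19.97% of Timp3. Mmp19 in 10 M had 18.9% of its UMIs there and Timp3 in NB 16.1%. In the library labelled 18 M, 59 of these barcodes passed the alveolar macrophage gate and carried 946 CPM of Mmp12 (902 to 991), and without the upper limits the Mmp12 level of alveolar macrophages was 248, 86.2, 41.2 and 373 CPM by age. Whether these barcodes hold more than 1 cell was not tested.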

How the results depend on the processing

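Each age has 1 library, so no library could be left out. No paired analysis was possible because 1 library per age leaves no replicate numbers to pair. Of 336 alternative values of the fibroblast ratios, 326 kept their call, 7 lost it and 3 gained one, and no called ratio reversed. Levels and source shares moved more often. Of the alternative CPM levels in fibroblasts and alveolar macrophages, 96 fell outside the reported interval and 336 within it. For the fibroblast shares of a member's UMIs these were 37 and 187. Over 12 alternatives the log2 ratio of 18 M over 2 M was -3.75 to -2.47 for Mmp3 and -1.83 to -1.64 for Timp3, both called in each. For Mmp14 it was 1.07 as reported and fell short of 2-fold without upper limits on cells (0.94), with a gate margin of 1 marker (0.99) and as a mean over cells (0.93), which has no interval and was called by fold alone. The number of members called for 10 M over 2 M was 0 instead of 1 with the total without haemoglobin, mitochondrial, ribosomal protein and surfactant genes, as the mean over cells, and in adventitial fibroblasts only, each time through Mmp2, whose log2 ratio ran from -1.24 to -0.86. For NB over 2 M it was 2 instead of 1 as the mean over cells and with a fibroblast gate without Col1a1, Col1a2 and Col3a1, through Mmp3. That gate, the adventitial fibroblasts and the number from Y-linked cells were chosen after seeing the data. It left 87, 68, 230 and 74 fibroblasts by age, and with it 3 members instead of 5 had most of their UMIs in fibroblasts of the library labelled 18 M; the cause was not tested. Thinning to 500 or 2000 UMIs moved 41 of 64 shares of cells, which scale with the depth drawn. Depth limits the ratios of genes with few UMIs, such as Timp1 in macrophages and Mmp2 in endothelial cells.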

Other observations

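Cells left without a type held part of the members' RNA, from 2.36% of the kept UMIs of Mmp3 to 20.7% of Mmp12. Barcodes dropped by the limits held 51.8% of the Mmp12 UMIs of the series and 8.16% of those of Mmp3, the extremes of the members.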
